A study of Rattus norvegicus with 22 samples.

Results

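Prefrontal cortex of rats treated with both WIN and cocaine was set against prefrontal cortex of control rats by RNA sequencing, which puts the combined effect of 2 drugs beside the state with neither. The comparison rests on 6 libraries, 3 labelled WIN+cocaine and 3 labelled control, out of 22 samples in the series. Genes were kept when their FPKM reached 1 in 3 or more of the 12 prefrontal cortex RNA libraries, which left 15326 of the 29663 genes in the deposited table. FPKM is a read count divided by gene length and by library total. The other 14337 genes were not tested.

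The tissue came from male Sprague-Dawley rats, and all 4 groups share that strain, sex and tissue. The WIN+cocaine rats received the synthetic cannabinoid receptor agonist WIN and cocaine, the cocaine rats received cocaine, the WIN rats received WIN, and the control rats carry the label control alone. The title of the series places the cannabinoid exposure in adolescence and the interest in the initial response to cocaine. Doses, times, ages at collection and what the control rats were given are not in the labels. Nor do the labels state that each replicate is its own animal. The p-values therefore reflect the variation among these samples only, part or all of which may be technical.

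Cocaine blocks the transporters that clear dopamine and other monoamines from the synapse. WIN activates cannabinoid receptors, the chief brain form of which sits on axon terminals and lowers the release of glutamate and GABA. The prefrontal cortex receives dopamine input, sends excitatory output to the nucleus accumbens, and is still maturing during adolescence. The table identifies genes by Ensembl rat IDs or by IDs of another series, and neither the table nor the annotation at hand pairs them with gene symbols. Genes are therefore described by ID, level, length and treatment pattern, and the tissue could not be checked against its marker genes. In whole tissue, a change in the number of cells of a type cannot be told apart from a change in the RNA of each cell.

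The reads behind the FPKM values could be recovered, as set out with the processing. The recovered depth was 22106025 to 27101698 reads in the WIN+cocaine libraries and 20852442 to 25911627 reads in the control libraries. The genes that reached an FPKM of 1 numbered 14589 to 14720 in WIN+cocaine and 14625 to 14728 in control. The median depth of the genes tested was 488 reads per library.

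No gene passed the test between WIN+cocaine and control. Limma on log2(FPKM + 1), fitted over all 12 libraries, called 0 of 15326 genes at an adjusted p under 0.05 (Benjamini-Hochberg), which is 0% of those tested, and 0 at 0.10. The smallest adjusted p was 0.617. Limma voom on the recovered reads also called 0 genes, with 1201 at an unadjusted p under 0.05. An unadjusted limma p under 0.05 was found for 1212 genes, or 7.91% of those tested, where evenly spread p-values would give 5%. Of the 1212 genes, 836 were higher in WIN+cocaine (5.45% of genes tested) and 376 were lower (2.45%). Below an unadjusted p of 0.01 were 205 genes, 152 higher and 53 lower. The share at an unadjusted p under 0.05 was under 5% without WIN+cocaine replicate 1 (516 genes, 3.37%) and without control replicate 2 (565 genes, 3.69%).

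The lean towards higher values varied with the scaling of the libraries and with the libraries in the fit. Higher genes made up 69.0% of those at an unadjusted p under 0.05 with the values as deposited. Quantile normalization brought this to 58.0% (697 higher, 505 lower), and rescaling by median ratios to 62.0% (725 higher, 444 lower). With the deposited scaling it was 60.4% with the 6 compared libraries alone (1128 higher, 740 lower). When 1 library was left out, it ran from 58.6% without control replicate 1 (653 higher, 462 lower) to 72.8% without control replicate 3 (751 higher, 280 lower). The median log2 difference over all genes was close to 0 under each scaling, at -0.0022, -0.0060 and -0.0033, and 49.5% of genes had a positive difference as deposited.

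The groups did not overlap in 3004 genes, or 19.6% of those tested. All 3 WIN+cocaine values lay above all 3 control values in 1689 genes (11.0%), and all lay below in 1315 genes (8.58%). With 3 libraries against 3, the smallest exact permutation p is 0.1, counting both directions, and full separation is what gives it. A share of about 0.1 of genes would thus separate where the groups do not differ. Genes are not independent replicates, and the excess over this share was not tested. Differences were small. The median absolute log2 difference was 0.10, and the genes at an unadjusted p under 0.05 had medians of 0.27 when higher and -0.29 when lower.

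**Figure D1:**
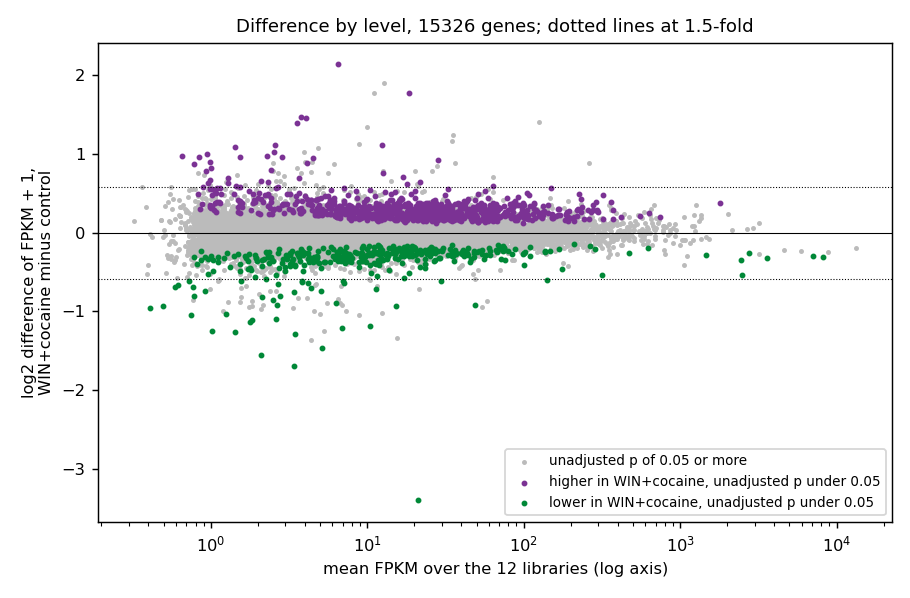
Each point is 1 of 15326 genes, with its mean FPKM over the 12 libraries on a log axis and the log2 difference of FPKM + 1, WIN+cocaine minus control, on the vertical axis. The 836 higher and 376 lower genes at an unadjusted limma p under 0.05 are coloured, and most of them lie inside the dotted lines at 1.5-fold.

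The limits on each difference show how large a change these libraries could still hold. The 95% interval of the log2 difference lay wholly inside 1.5-fold in either direction for 13019 genes, or 84.9% of those tested. It lay inside 2-fold for 14765 genes, or 96.3%. The median SE of a difference was 0.12 and the median half-width of the interval 0.25 on the log2(FPKM + 1) scale. The SE fell as depth rose, up to genes of 20 to 50 FPKM, and was level above that. Its median was 0.15 in the 2400 genes with a mean FPKM up to 2, at a median depth of 52.1 reads per library. It was 0.096 in genes of 20 to 50, at a median depth of 1426 reads, and 0.094 in genes of 50 to 100, at 2887 reads. In the 948 genes over 100 it was 0.095, at a median depth of 6789 reads. These intervals are per gene and not adjusted for the number of genes. The folds are those of FPKM + 1, so changes at low FPKM appear too small. For such genes an interval inside 1.5-fold or 2-fold can still hold a larger change in FPKM.

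The 2 IDs with the smallest p among higher genes were ENSRNOG00000021302 and ENSRNOG00000018536, among genes whose mean FPKM in the 6 libraries was 2 or more. ENSRNOG00000021302, with a counted length of 519 bp, had an FPKM of 65.8, 58.0 and 55.4 in the WIN+cocaine libraries, against 47.4, 37.8 and 41.5 in the control libraries. These came from 926, 665 and 743 reads in WIN+cocaine and 579, 409 and 558 reads in control. Every WIN+cocaine value lay above every control value. The means were 59.7 ± 5.45 in WIN+cocaine and 42.2 ± 4.86 in control (SD, n = 3 each). The log2 difference was 0.49 (SE 0.10), the unadjusted limma p was 3.6e-04 and the adjusted p 0.617.

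The same gene averaged 53.6 ± 2.24 in cocaine and 47.8 ± 4.64 in WIN (SD, n = 3 each), between the other groups in both cases. Its cocaine values of 51.2, 55.6 and 54.0 all lay above the control values, and the highest of them lay just above the lowest WIN+cocaine value. WIN+cocaine differed from cocaine by a log2 value of 0.15 ± 0.10 (SE, adjusted limma p 0.542), and from WIN by 0.32 ± 0.10 (SE, adjusted limma p 0.975).

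ENSRNOG00000018536, of 2024 bp, had an FPKM of 18.1, 15.9 and 17.1 in WIN+cocaine, against 13.3, 12.8 and 12.7 in control, with 542 to 993 reads in each of the 6 libraries. The groups did not overlap. The means were 17.0 ± 1.08 in WIN+cocaine and 12.9 ± 0.319 in control (SD, n = 3 each). The log2 difference was 0.37 (SE 0.08) and the adjusted limma p 0.617. Cocaine stood at 16.0 ± 0.939, with all 3 values above control and within or near the WIN+cocaine range. WIN stood at 13.7 ± 0.987 (SD, n = 3 each), and 1 of its 3 values lay inside the control range of 12.7 to 13.3. The log2 difference of WIN+cocaine was 0.09 from cocaine and 0.30 from WIN, each with an SE of 0.08.

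Among lower genes the smallest p belonged to ENSRNOG00000043915, which is 99 bp long and had very few reads. It had 2, 3 and 0 reads in the WIN+cocaine libraries, against 8, 8 and 10 reads in the control libraries. Its FPKM was 0.745, 1.37 and 0 in WIN+cocaine and 3.43, 3.87 and 3.90 in control, so the groups did not overlap. The log2 difference was -1.56 (SE 0.28), and its unadjusted limma p of 1.3e-04 was the smallest of all 15326 genes. Its adjusted p was 0.617. As a share of all reads, the 5 reads in WIN+cocaine were 0.180 times the 26 reads in control, with an exact 95% interval of 0.0540 to 0.477 that covers counting error only. Cocaine had 6, 6 and 5 reads and WIN had 4, 6 and 2, so both single-drug groups lay below control as well.

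The other lower ID was ENSRNOG00000024230, of 615 bp. It had an FPKM of 4.14, 4.41 and 4.59 in WIN+cocaine, against 6.50, 5.46 and 7.22 in control, with 60 to 73 reads per WIN+cocaine library and 70 to 115 per control library. The groups did not overlap in FPKM. The means were 4.38 ± 0.227 in WIN+cocaine and 6.39 ± 0.884 in control (SD, n = 3 each). The log2 difference was -0.45 (SE 0.10) and the adjusted limma p 0.617. Cocaine stood at 4.36 ± 0.132, level with WIN+cocaine, and WIN+cocaine minus cocaine was 0.01 on the log2 scale (SE 0.10). WIN stood at 5.19 ± 0.398 (SD, n = 3 each), and 2 of its 3 values lay below the lowest control value.

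**Figure D2:**
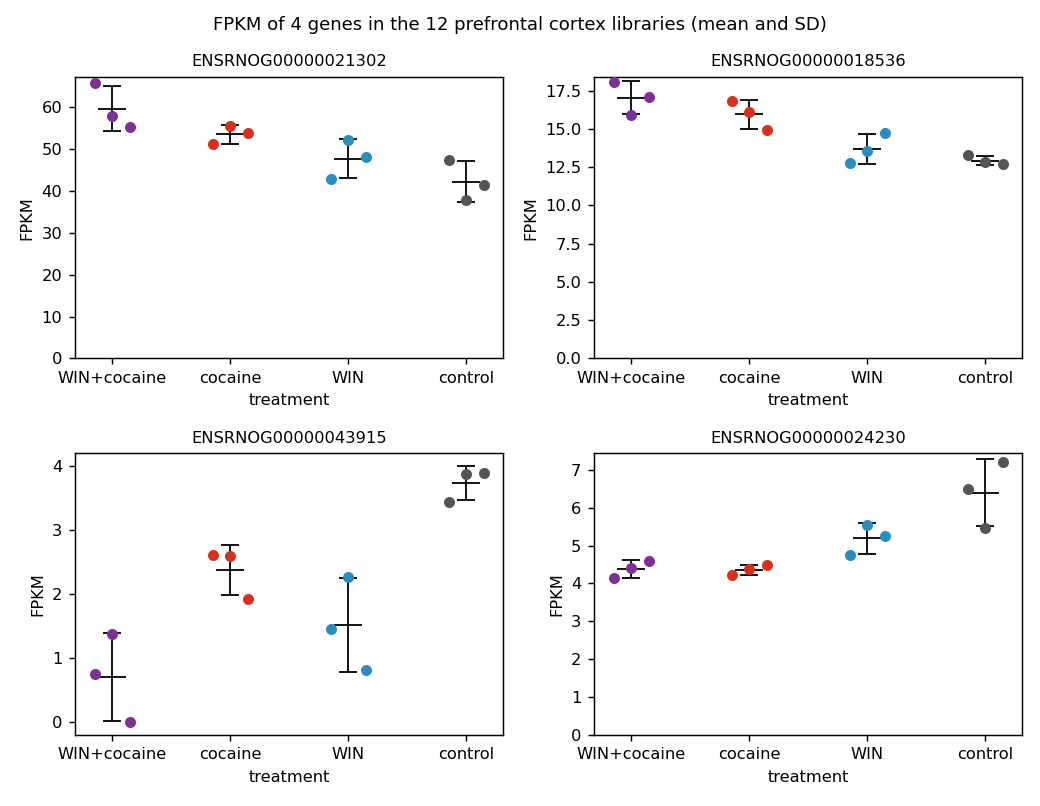
FPKM of the 4 IDs in each of the 12 libraries, with 3 points per treatment and a bar for the mean and SD. In each panel the 3 WIN+cocaine points lie wholly above or wholly below the 3 control points, as their selection by p favours, and the cocaine and WIN means lie between the 2 groups except for cocaine in ENSRNOG00000024230, at 4.36 beside 4.38 in WIN+cocaine.

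Since a small p here is what selected these 4 IDs, their separation is a description. The comparisons of cocaine and WIN with control reuse the same 3 control libraries. In those comparisons the log2 differences from control were 0.34 in cocaine and 0.17 in WIN for ENSRNOG00000021302, and 0.28 and 0.07 for ENSRNOG00000018536. They were -0.49 in cocaine and -0.95 in WIN for ENSRNOG00000043915, and -0.46 and -0.25 for ENSRNOG00000024230. ENSRNOG00000043915 was thus the 1 ID of the 4 whose WIN value lay farther from control than its cocaine value.

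The 10 smallest p-values in each direction, under the same limit on FPKM, gave 20 genes, and in each of them the groups did not overlap. The 10 higher genes had log2 differences of 0.36 to 1.45 and mean FPKM values of 3.63 to 79.8 in WIN+cocaine and 2.30 to 52.3 in control. The 10 lower genes had log2 differences of -1.56 to -0.29 and mean FPKM values of 0.705 to 54.6 in WIN+cocaine and 3.27 to 66.7 in control. Depth differed between the directions: 5 of the 10 lower genes averaged fewer than 100 reads per library, and 1 of the 10 higher genes did. None of these 20 genes passed an adjusted p of 0.05 in limma.

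With the values as deposited, the lean towards WIN+cocaine was larger in genes of higher level. Of the 4780 genes with a mean FPKM over 20, 439 were higher and 116 lower at an unadjusted p under 0.05, which is 9.18% and 2.43% of them. Of the 10546 genes up to 20, 397 were higher and 260 lower, or 3.76% and 2.47%. The share of lower genes thus barely changed with level, whereas the share of higher genes did. It ran from 2.21% in genes up to an FPKM of 2 to 9.96% in genes of 50 to 100, and stood at 8.44% in those over 100.

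Under other scalings this contrast was smaller. After quantile normalization higher genes outnumbered lower ones by about the same number at both levels. That number came from 4780 genes over 20 and 10546 up to 20, so as a share of genes the surplus was still larger over 20. For genes over 20 the counts were 304 higher and 208 lower after quantile normalization, and 359 higher and 147 lower after median ratio rescaling. For genes up to 20 they were 393 and 297 after quantile normalization and 366 and 297 after median ratio rescaling. After quantile normalization the share of lower genes also grew with level up to 100 FPKM. Lower genes were then 45 of 2400 up to an FPKM of 2, 56 of 1074 at 50 to 100 and 32 of 948 over 100. The counts also dropped with single libraries: for genes over 20 leaving out WIN+cocaine replicate 1 gave 121 higher and 41 lower, and leaving out control replicate 2 gave 145 higher and 40 lower. Higher genes outnumbered lower ones at this level under all of these settings.

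**Figure D3:**
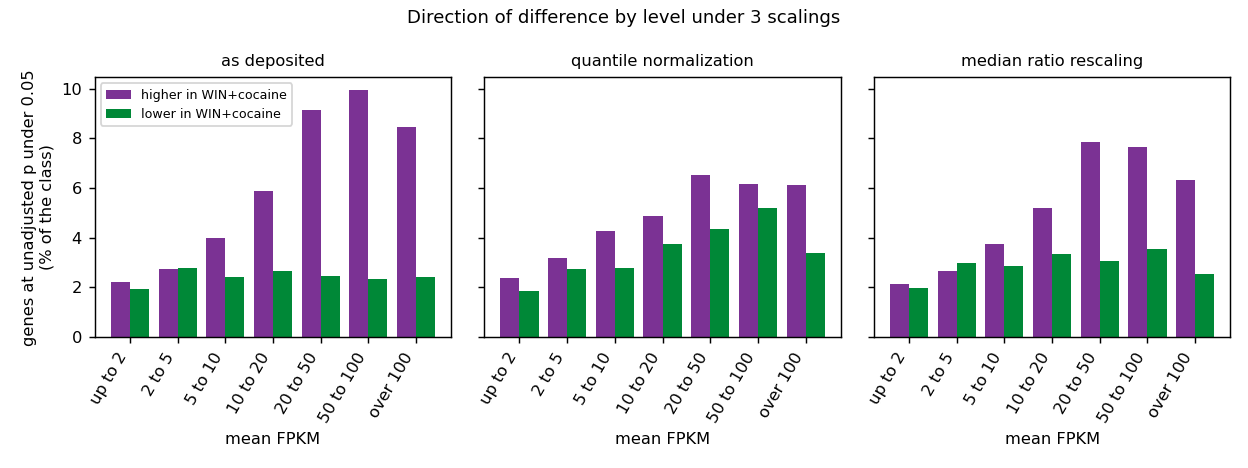
Bars give the percent of genes in each class of mean FPKM that were higher or lower in WIN+cocaine at an unadjusted limma p under 0.05, under 3 scalings of the libraries. As deposited, the share of higher genes grows from 2.21% to 9.96% at 50 to 100 FPKM while the share of lower genes stays between 1.92% and 2.80%, and quantile normalization brings the 2 shares closer.

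Genes over 4000 bp had more lower than higher genes once libraries were rescaled, whereas genes of 500 to 4000 bp kept more higher ones. The counted lengths, which follow from the recovered reads, had a median of 1922 bp. The 5087 genes of 1000 to 2000 bp had 320 higher and 102 lower genes at an unadjusted p under 0.05. After quantile normalization these were 268 and 135, and after median ratio rescaling 284 and 123. The 5288 genes of 2000 to 4000 bp had 313 higher and 134 lower as deposited. The counts there were 253 and 193 after quantile normalization and 264 and 157 after median ratio rescaling. The 2027 genes over 4000 bp had 65 higher and 45 lower as deposited, but 51 higher and 72 lower after quantile normalization and 47 higher and 59 lower after median ratio rescaling. The 1870 genes of 500 to 1000 bp had 94 higher and 47 lower as deposited. These were 81 and 53 after quantile normalization and 87 and 55 after median ratio rescaling. The 1054 genes up to 500 bp were near even, with 44 higher and 48 lower as deposited.

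Differences of 1.5-fold or more were few, and short genes with few reads held a larger share of them than of all genes tested. Measured as log2(FPKM + 1), where changes at low FPKM appear too small, 82 genes were at least 1.5-fold higher (0.535% of those tested) and 84 at least 1.5-fold lower (0.548%). At 2-fold or more there were 18 higher and 20 lower genes. Of the 166 genes past 1.5-fold, 79 were up to 500 bp long, or 47.6%, beside 6.88% of all genes tested. The median depth of the 166 was 57.0 reads per library, beside 488 over all genes tested.

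Many of these larger differences did not stay past 1.5-fold without 1 library. A gene just past the cutoff can come under it in this way even where its libraries agree. In 106 of the 166 genes the difference came under 1.5-fold when 1 of the 6 libraries was left out. Other genes then passed it, and the total was 196 to 253 over these 6 settings, the highest without WIN+cocaine replicate 2. The other 60 genes, 28 higher and 32 lower, stayed at 1.5-fold or more without any 1 library, and 31 of them were up to 500 bp long. An unadjusted p under 0.05 was found for 36 of the 82 higher and 43 of the 84 lower genes, beside 5.45% and 2.45% of all genes tested. The groups did not overlap in 35 of the higher and 30 of the lower genes, beside 11.0% and 8.58% of all genes. These genes were selected for a large difference in the same comparison, so nothing is read from these counts.

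Few genes crossed an FPKM of 1 between the groups, which is also the level of the filter. Of the 15326 genes tested, 29 had an FPKM of 1 or more in all WIN+cocaine libraries and under 1 in all control libraries. The opposite held for 20. Such genes can pass the filter through the group where they are high, and a small change around 1 is enough. Nothing is therefore read from these counts.

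Genes without an Ensembl ID made up 1278 of those tested. An unadjusted p under 0.05 was found for 32 higher and 21 lower ones, together 4.15% of them, beside 7.91% of all genes tested. Their level was also low, with a median FPKM of 1.98 beside 11.0 in genes with an Ensembl ID. Among genes with a mean FPKM up to 5, the share was 3.58% of 977 genes without an Ensembl ID and 5.20% of 4177 with one. This gap was not tested.

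The 6 libraries that the comparison does not hold, 3 of cocaine and 3 of WIN, give a readout of the same genes in other samples. The comparison of cocaine with WIN shares no library with WIN+cocaine against control, although both use the spread estimated over all 12. It was added after the data were examined. Of the 836 genes higher in WIN+cocaine, 763, or 91.3%, were also higher in cocaine than in WIN, beside 46.8% of all genes tested. Of the 376 lower genes, 83.0% were lower in cocaine than in WIN, beside 53.2% of all genes. Their median log2 differences, cocaine minus WIN, were 0.22 and -0.18, beside -0.02 for all genes.

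Genes are not independent replicates, and these shares carry no test. They held when each cocaine or WIN library was left out, at 89.5% to 91.5% for the higher and 81.4% to 84.6% for the lower genes. When a compared library was left out and the genes were chosen again, the share was lowest without control replicate 2, at 78.3% of 406 higher and 67.3% of 159 lower genes. Without WIN+cocaine replicate 1 it was 82.5% of 325 and 76.4% of 191.

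**Figure D4:**
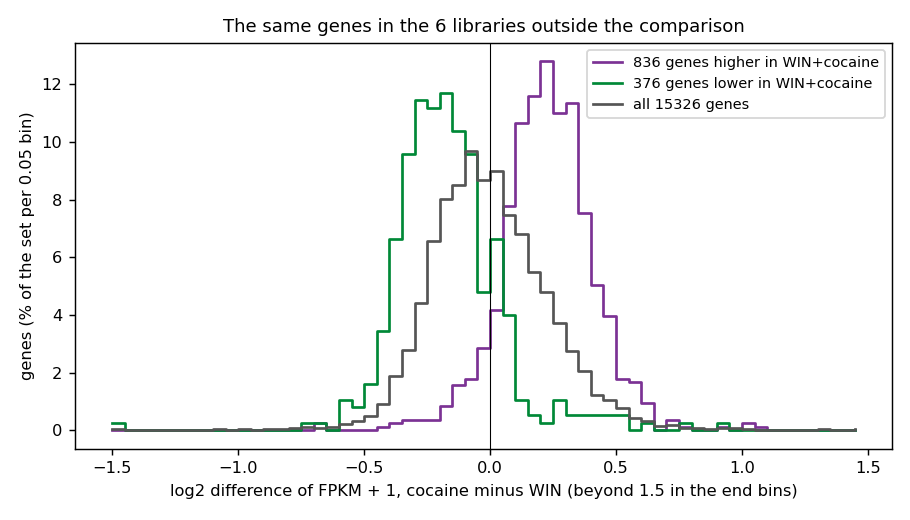
Log2 difference of FPKM + 1, cocaine minus WIN, in 6 libraries outside the comparison, as the percent of each gene set per bin of 0.05. The 836 genes higher in WIN+cocaine centre on 0.22 and the 376 lower genes on -0.18, to either side of all 15326 genes at -0.02.

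In size, the difference between WIN+cocaine and control lay between those of the single drugs. Genes with an unadjusted p under 0.05 numbered 1212 here, 4768 (31.1%) in cocaine against control and 238 (1.55%) in WIN against control, all from 1 fit and all with the same control libraries. The median absolute log2 differences were 0.10, 0.18 and 0.07 in that order. WIN+cocaine against cocaine had 1623 genes at that p (10.6%) and WIN+cocaine against WIN had 576 (3.76%). Each of these comparisons, those with control included, had 0 genes called at an adjusted limma p under 0.05. The smallest adjusted limma p was 0.0596 in cocaine against control, with 3037 genes under 0.10, and 0.642 in WIN against control. For the 836 higher genes the median log2 difference from control was 0.27 in WIN+cocaine, on which they were chosen, 0.32 in cocaine and 0.10 in WIN. For the 376 lower genes the medians were -0.29, -0.31 and -0.12 in the same order. The control libraries that entered the choice of these genes also enter the cocaine and WIN medians. The choice thus favours the same sign in all of them, and nothing is read from these medians.

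The WIN+cocaine libraries lay farther from each other than the control libraries did. The root mean square log2 difference over all genes tested was 0.308 to 0.325 between pairs of WIN+cocaine libraries and 0.267 to 0.278 between pairs of control libraries. Between the groups it ran from 0.267, for WIN+cocaine replicate 2 and control replicate 3, to 0.354, for WIN+cocaine replicate 1 and control replicate 2. WIN+cocaine replicate 2 thus lay closer to each of control replicates 1, 2 and 3, at 0.296, 0.308 and 0.267, than to either other library of its own group. WIN+cocaine replicate 3 likewise lay closer to control replicates 1 and 3, at 0.288 and 0.294, than to the other WIN+cocaine libraries, at 0.308 and 0.325. The SD within a group was larger in WIN+cocaine than in control for 59.1% of genes, with medians of 0.12 and 0.10.

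The 2 libraries of the most distant pair carried much of the count. Of the 516 genes at an unadjusted limma p under 0.05 without WIN+cocaine replicate 1, 325 were higher and 191 lower. Of the 565 without control replicate 2, 406 were higher and 159 lower, and 1 gene was called at an adjusted p of 0.0029. That gene, singled out after its values were seen, had an FPKM of 1.82, 1.55 and 1.32 in WIN+cocaine, against 11.4, 1.64 and 16.0 in control. Control replicate 2 lay with WIN+cocaine, as did all 6 cocaine and WIN libraries, at 0.647 to 1.65. Without WIN replicate 3, which is in neither group but enters the estimate of the spread, the count was 1822, of which 1138 were higher and 684 lower.

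**Figure D5:**
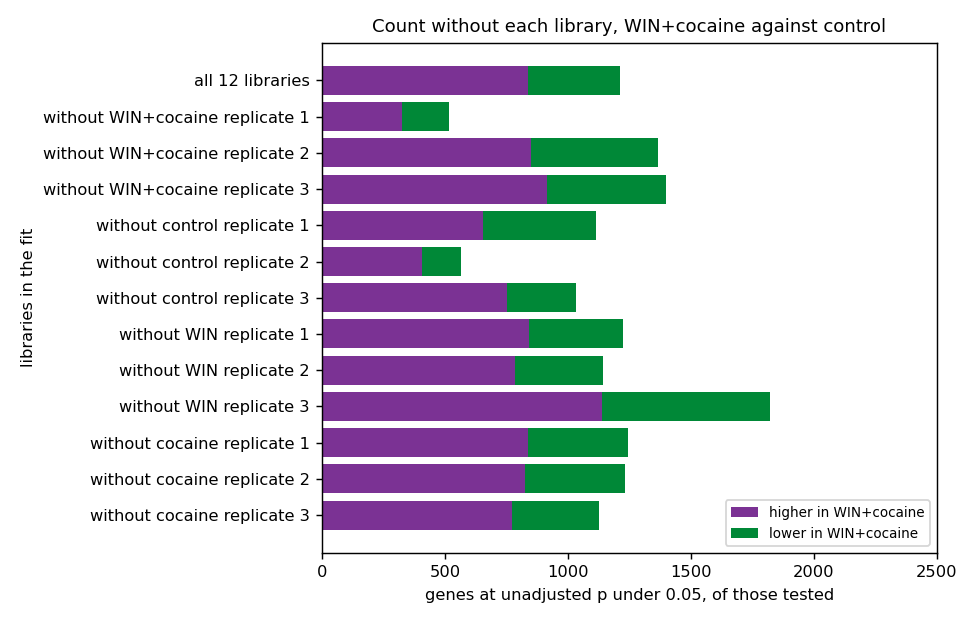
Number of genes at an unadjusted limma p under 0.05 between WIN+cocaine and control, of 15326 tested, with all 12 libraries and without each in turn, divided into higher and lower genes. The count of 1212 drops to 516 without WIN+cocaine replicate 1 and to 565 without control replicate 2, and reaches 1822 without WIN replicate 3.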

How the data were processed

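RNA was measured in 12 prefrontal cortex libraries, 3 each of WIN+cocaine, cocaine, WIN and control, grouped by sample title. The authors deposited FPKM values for them. The libraries were stranded and made from 1 µg of total RNA, per the labels' protocols. HISAT2, HTSeq and DESeq are the tools named for RNA in the submitters' processing notes. The build, annotation and counting strand were not given in the sources used here. Genes that overlap or have near copies may therefore share reads. The 4 ATAC and 6 nucleus accumbens RNA libraries were not used here.

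After each library was multiplied by its own factor, the FPKM values of a gene were whole multiples of 1 common step. All 24197 genes with a value gave whole reads within 0.001, and of the 11615 with more than 200 reads in a library, 99.98% had a length within 0.03 bp of a whole number (6% by chance). No 2 of the 6 compared libraries agreed within sampling noise (chi-square per degree of freedom 10.3 to 35.9).

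Values were tested as log2(FPKM + 1) with limma 3.58.1 (R 4.3.3), using 1 mean per group over 12 libraries and a prior variance with a trend. P-values were adjusted by the Benjamini-Hochberg method. The test was tried on simulated data with known changes first, in 200 of 15326 genes. At an adjusted limma p under 0.05 it recovered 44% of the 1.5-fold changes and 78% of the 2-fold changes, with 6 false calls.

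By the rule for a table without symbols, the printed IDs were the 2 higher and 2 lower ones of smallest p whose mean FPKM in the 6 compared libraries was 2 or more. None of the IDs matched the reference table (GRCr8, 47357 genes), so the gene lists and cell type markers chosen by symbol were not analysed here. Members, lists and tests were chosen with earlier results of these data known. Alternatives covered the pseudocount, filter, scaling, weights, the replicate block, voom and leaving out each library.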

Additional observations from a re-analysis of the deposited data

How the results depend on the processing

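The count of genes called at an adjusted limma p under 0.05 was 0 in 23 of 24 alternatives, and leaving out a library gave 0 to 1. The count at an unadjusted p under 0.05 stayed within 1.5 times of 1212 in 19 of 23 alternatives. A fit of the 6 compared libraries alone gave 1868. Leaving out libraries gave 516 to 1822, with the lowest values without WIN+cocaine replicate 1 (516) and control replicate 2 (565) and the highest without WIN replicate 3. WIN replicate 3 had the lowest library weight, 0.296, which is estimated from the same values. The cause of the higher count without it was not tested. With the replicate number of the titles as a block the count was 1136, with 0 genes called and a smallest adjusted p of 0.377. Deviations of same-numbered WIN+cocaine and control libraries correlated at 0.11, 0.04 and -0.10, and not every WIN+cocaine library correlated best with its own number. Each of the 4 IDs had the same sign under all 23 alternatives, as the choice of IDs by p favours, with adjusted p of 0.174 to 0.996. ENSRNOG00000043915 ranged from -2.94 with a pseudocount of 0.1 to -1.22 without WIN+cocaine replicate 3. The quasi-likelihood count test on the recovered reads was not run; voom on those reads was. With 3 libraries against 3, changes may have gone undetected. In the simulated data, 44% of the 1.5-fold and 78% of the 2-fold changes were recovered. Those genes varied independently and the folds were of FPKM, so the rates may not hold for the real libraries.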
